A study of Mus musculus with 4 samples.

Results

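Among 9925 cells washed from the airspaces of mice, the authors gave 104 the refined label Epithelial (Ciliated and AEC2), AEC2 being the usual short form for alveolar epithelial type 2 cells. All 104 are described here, against the 9821 cells of every other refined label. They were split by the share of their transcripts that came from 4 adult haemoglobin genes, Hba-a1, Hba-a2, Hbb-bs and Hbb-bt: 20 cells at 50% or more form the red part, and 84 cells below that line form the epithelial part. Every transcript was counted by its unique molecular identifier (UMI), a tag that lets amplified copies of 1 molecule count once.

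All mice were C57BL/6, and the 4 groups differed in what the mice breathed and what they then received through the nose. The control group breathed filtered air and received phosphate-buffered saline. The HDM group breathed filtered air and received house dust mite, an allergen. The APM group breathed Afghanistan particulate matter, a desert dust, in a whole-body chamber (5 mg/m3, 12 daily sessions of 6 hours) and received saline, and the HDM+APM group breathed the dust and received the allergen. Each allergen dose held 10 µg; 2 sensitizing doses fell on days 22 and 29, the challenges ran from day 36 to 38, and cells were collected on day 39. Every group is 1 library made from the mixed cells of 7 mice, which leaves every difference between groups without a replicate check and untested. Each mouse was lavaged 5 times, in a way meant to spare the trachea and keep blood out, per the labels' protocols. Strainers of 70 µm and then 40 µm removed clumps, and viability by trypan blue was 60 to 80%. Ages, sexes and any red-cell lysis are not stated in the labels. Intervals below are 95% intervals for counting error only.

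Airway and alveolar epithelium lines the airspaces, and few of its cells normally come away in lavage. Alveolar type 2 cells make surfactant, the lipid and protein film that keeps alveoli open. Club cells secrete secretoglobins and carry detoxifying enzymes, goblet cells secrete mucins, and ciliated cells move mucus. Goblet-cell genes, with the secreted proteins Retnla and Chil4, are a known part of the response to allergen through the type 2 cytokines interleukin 4 and interleukin 13. Red cells lack a nucleus and most organelles, and their remaining RNA is mostly haemoglobin.

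Upstream sequences are shown first for 2 sets of genes. One is the haemoglobin genes with Alas2, the erythroid enzyme that starts haem synthesis. The other is the allergen-response genes Retnla and Chil4. The first set was high in the red part, and the second in many epithelial cells of the HDM+APM library. Each run is the 250 bases before the RefSeq start, build GRCm38.p6, written 5′ to 3′ along the gene. Capitals mark the letters matched by a motif search on both strands, with N for any base: GATAAG (the GATA motif), CCAAT, CCNCACCC (the CACCC box) in the erythroid genes, and, in the other pair, TTC and GAA with any 4 bases between them (the STAT motif), TTGCNNAA (a C/EBP motif) and TATAAA.
Hba-a1, chr11:32283422-32283671 (plus strand): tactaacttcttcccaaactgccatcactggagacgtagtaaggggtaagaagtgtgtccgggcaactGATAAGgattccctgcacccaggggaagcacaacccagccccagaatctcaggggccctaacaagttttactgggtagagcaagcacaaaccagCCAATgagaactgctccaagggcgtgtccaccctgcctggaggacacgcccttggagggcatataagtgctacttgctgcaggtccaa
Hbb-bs, chr7:103827929-103828178 (minus strand): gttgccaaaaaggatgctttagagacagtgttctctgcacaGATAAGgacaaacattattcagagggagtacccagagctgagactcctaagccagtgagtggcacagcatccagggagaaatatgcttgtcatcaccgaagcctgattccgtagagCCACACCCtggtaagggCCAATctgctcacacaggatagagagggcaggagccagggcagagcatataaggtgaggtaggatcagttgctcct
Hbb-bt, chr7:103813924-103814173 (minus strand): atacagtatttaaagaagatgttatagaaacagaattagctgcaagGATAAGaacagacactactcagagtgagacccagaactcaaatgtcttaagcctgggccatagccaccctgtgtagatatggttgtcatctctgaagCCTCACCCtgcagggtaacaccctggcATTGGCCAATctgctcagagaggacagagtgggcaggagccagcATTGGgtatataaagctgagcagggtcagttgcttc
Alas2, chrX:150547167-150547416 (plus strand): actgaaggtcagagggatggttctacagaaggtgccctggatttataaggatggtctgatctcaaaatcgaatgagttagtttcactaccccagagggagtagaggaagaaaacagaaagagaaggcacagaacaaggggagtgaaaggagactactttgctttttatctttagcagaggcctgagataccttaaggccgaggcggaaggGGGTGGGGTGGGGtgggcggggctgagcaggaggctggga
Retnla, chr16:48842359-48842608 (plus strand): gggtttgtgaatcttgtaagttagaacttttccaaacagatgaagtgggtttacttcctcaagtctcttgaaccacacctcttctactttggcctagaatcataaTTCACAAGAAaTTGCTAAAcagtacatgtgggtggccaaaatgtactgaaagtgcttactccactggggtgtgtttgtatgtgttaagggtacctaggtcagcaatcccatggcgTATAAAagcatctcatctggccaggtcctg
Chil4, chr3:106219480-106219729 (minus strand): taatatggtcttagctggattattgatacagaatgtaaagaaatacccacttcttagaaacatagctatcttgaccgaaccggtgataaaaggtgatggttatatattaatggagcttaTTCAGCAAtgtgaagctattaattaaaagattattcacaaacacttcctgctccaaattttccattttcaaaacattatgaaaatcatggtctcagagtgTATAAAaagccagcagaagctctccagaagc

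GATAAG stood 182 bases before the start of Hba-a1, 209 before Hbb-bs and 204 before Hbb-bt, and 6.55% of the 32851 promoters of the same length hold it on either strand. CCAAT stood 88, 76 and 75 bases before the same 3 starts, against 33.8% of all promoters. Hbb-bt held 2 further CCAAT matches on the other strand, of which the ATTGG at 80 bases directly adjoined the first. CCNCACCC occurred as CCACACCC 93 bases before Hbb-bs and as CCTCACCC 107 bases before Hbb-bt, against 14.9% of all promoters. Alas2 held that box on the other strand at 40 and 35 bases, as GGGTGGGG, in 2 overlapping matches. Alas2 had no match to GATAAG or CCAAT, and Hba-a1 none to CCNCACCC. Retnla held TTCACAAGAA 145 bases, TTGCTAAA 134 bases and TATAAA 30 bases before its start, and the shares of all promoters with these 3 motifs were 5.85, 9.56 and 12.4%. Chil4 held TTCAGCAA, the C/EBP letters on the other strand, at 131 bases and TATAAA at 31 bases, and had no STAT match. The upstream runs of Hba-a1 and Hba-a2 were the same at all 247 aligned bases, and those of Hbb-bs and Hbb-bt at 178 of 243 (73.3%). A match describes the letters and shows no binding.

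Copies this close also limit the counts. The transcripts of Hba-a1 and Hba-a2 share 537 of 538 aligned bases, those of Hbb-bs and Hbb-bt 92.7%, of Chil3 and Chil4 94.4% and of Lyz1 and Lyz2 96.0%. The labels do not state how reads were divided between such copies, so their separate values are uncertain and sums over the haemoglobin genes are preferred. Hba-a1 lies at chr11:32283511-32284465, Hbb-bs at chr7:103826534-103828096 (minus strand) and Alas2 at chrX:150547375-150570638, all annotated as protein-coding genes (build GRCm38, GENCODE vM21), and the longest annotated model of each gene whose sequence is printed starts inside the printed run.

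The labelled cells were unevenly spread over the libraries. They numbered 7 of 3918 control cells (0.179%, interval 0.0719 to 0.368), 4 of 994 HDM cells (0.402%, 0.110 to 1.03), 68 of 3890 APM cells (1.75%, 1.36 to 2.21) and, in HDM+APM, 25 of 1123 (2.23%, 1.45 to 3.27). The APM and HDM+APM intervals overlapped each other and neither overlapped that of the control library. Among cells of at least 1000 UMIs the shares were 0.129% in control, 0.285% in HDM, 0.831% in APM and 1.51% in HDM+APM. A share of recovered cells cannot tell more epithelial cells in the lavage from fewer cells of other types. The red part held 2 control cells and 18 APM cells and none of the HDM or HDM+APM cells. The count of 0 allows a share of up to 0.302% in the HDM library and 0.267% in the HDM+APM library, against 0.463% (0.275 to 0.730) measured in the APM library. The upper limits of the exact intervals were 0.370 and 0.328%, so both overlap the APM interval. The epithelial part held 5, 4, 50 and 25 cells in control, HDM, APM and HDM+APM. Of the labelled cells, 1 shared its barcode with a cell of another library, among 84 such cells in the whole series.

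The 4 libraries held 15170333, 1920648, 11355310 and 5197132 UMIs in that order, with medians of 3417, 1380, 2637 and 4780 UMIs per cell. Epithelial cells were shallow: their median was 949 UMIs (496 to 5696), and 395 genes were detected in the median cell. The lowest of these equals the lowest depth of any deposited cell, so cells shallower than that are not analysed here.

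The line at 50% fell in a sparse stretch. The lowest red cell had 51.6% haemoglobin, and the highest epithelial cell had 45.8%, an APM cell with 3143 UMIs and 939 genes. The other 83 epithelial cells had at most 1.41%. Within the red part the cells fell into 2 ranges. In 15 of its cells haemoglobin made up 84.5 to 93.3% of UMIs, mitochondrial transcripts 0.120 to 0.428% and the 17 alveolar macrophage markers together 0.0617 to 0.272%. In the other 5, all from the APM library, haemoglobin made up 51.6 to 80.3%, mitochondrial transcripts 1.04 to 4.82% and the macrophage markers 0.451 to 1.48%. The split at 84% was chosen after the values were seen and fixes the haemoglobin ranges. Haemoglobin also limits the share left for other transcripts. The mitochondrial and macrophage ranges did not overlap between the 15 and the 5 cells. Other ranges did, such as UMIs (3393 to 7712 and 2967 to 5356), genes (259 to 451 and 373 to 828) and ribosomal transcripts (0.651 to 3.42 and 0.971 to 6.78%). Whether the 5 hold RNA of a second cell was not tested.

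**Figure D1:**
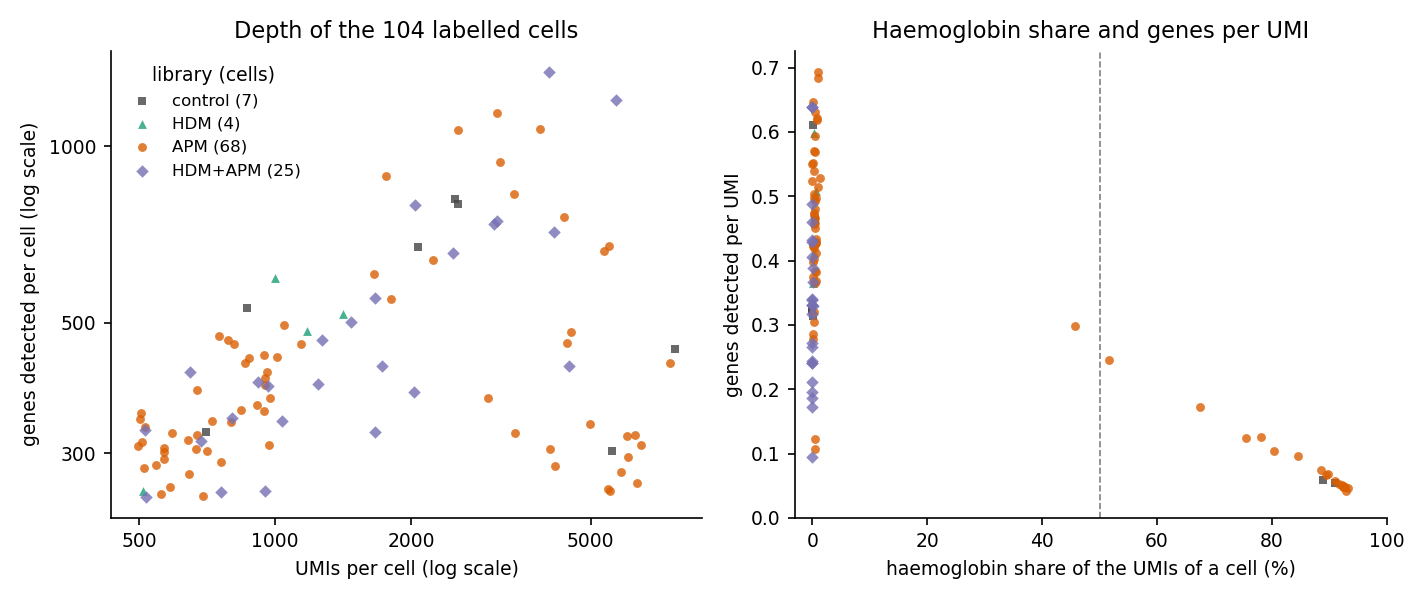
Each point is 1 of the 104 labelled cells, shaped and coloured by library: the left panel plots genes detected against UMIs per cell on log axes, and the right panel plots genes per UMI against the haemoglobin share, with the dashed line at 50%. Red cells lie at 2967 to 7712 UMIs with 259 to 828 genes, and the gap below the line holds 1 cell at 45.8%.

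The 20 red cells carried much RNA of few genes. They held a median of 5485.5 UMIs and only 321.5 genes, against 949 UMIs and 395 genes in the epithelial part. The values that placed them in the red part are given as a description only. CPM are the UMIs of a gene per 1000000 UMIs of the summed cells. Hbb-bs, an adult β-globin gene, stood at 403104 CPM against 1218 in all other cells. Hba-a1 stood at 225987 against 614 CPM, its copy Hba-a2 at 171159 against 462 and Hbb-bt, a second adult β-globin gene, at 72645 against 165. The ratio of α- to β-globin UMIs ran from 0.699 to 1.14 per cell with a median of 0.83, and Hbb-bt made up 6.63 to 10.7% of haemoglobin UMIs. The α-to-β ratio was 0.897 to 1.14 in the 5 red cells with less haemoglobin (median 0.912). In the other 15 it was 0.699 to 1.13 (median 0.784), so the ranges overlapped while the medians differed.

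Below, a gene is called higher or lower when its CPM differ at least 2-fold and the exact conditional binomial interval of the ratio leaves out 1, among genes with at least 20 UMIs over both sides. Because haemoglobin fills the total of a red cell, every other gene is pushed down there: against all other cells, 0.346% of 11853 genes were called higher and 24.4% lower. The label is itself drawn from the genes of these cells, so calls against the other cells describe the label and test nothing. The erythroid list, 31 measured genes of red-cell maturation, membrane and haem synthesis other than globin, had 14 of 27 genes called higher and none lower. With haemoglobin left out of every total, 1.9% of 11849 genes were called higher and 0.565% lower. On that scale 20 of the 27 erythroid genes were called higher and none lower, and their median log2 ratio was 3.90 beside −0.66 over all genes tested.

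Alas2 had 165 UMIs in the red part, from 3 to 14 in every cell, and 106 in the 9821 other cells. Its level was 1558 against 3.17 CPM, a ratio of 491 (383 to 633), haemoglobin included. Bpgm, which makes the red-cell metabolite that lowers oxygen affinity, had 110 UMIs and a ratio of 165 (129 to 208). It was found in 19 of the 20 cells, at up to 14 UMIs. Car2, a carbonic anhydrase, had 39 UMIs, and Fech, which places iron into haem, had 32. Without the APM library, which leaves 2 red cells, 21 genes in place of 41 were called higher and the log2 ratio of Car2 was −0.28. Of the erythroid list, Ppox, Alad, Uros, Gm15915, Ank1, Xpo7 and Cpox had no UMI in the red part.

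Retnla had no UMI in the red part against 974 CPM elsewhere, but its UMIs elsewhere come almost all from the HDM+APM library, which has no red cell: with the other cells weighted to the red part's libraries the log2 ratio moved from −6.62 to −0.18 and was no longer called.

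Markers of other cells had few UMIs in the red part, in which haemoglobin fills most of the total. The alveolar type 1, B cell and platelet lists had no UMI, and the pan-epithelial list of keratins, claudins and epithelial transcription factors had 10 UMIs on 4 of its 23 genes. The club list had 118 UMIs on 10 of 19 genes, and Scgb1a1, the main club-cell secretoglobin, had 66. With haemoglobin left out, 8 of the 19 club genes were called higher in the red part than in all other cells and none lower, Scgb1a1 at 4903 against 697 CPM (7.03-fold, 5.44 to 8.95) and Scgb3a2 with 10 UMIs at 743 against 62.5 CPM. Sftpc, with 9 UMIs, was called higher as well, at 669 against 88.9 CPM. The 17 alveolar macrophage markers held 298 UMIs on 15 genes, with Pparg and Krt79 at 0. Without haemoglobin their summed level was 22136 CPM in the red part and 21815 CPM in all other cells, most of which are macrophages, and 1 of the 17 was called higher and 1 lower. Whether the macrophage and club transcripts entered the red cells' droplets as free RNA was not tested.

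Compared with the epithelial part, again without haemoglobin, 19.3% of 632 genes were called higher in the red part and 11.9% lower. All 11 erythroid genes with enough UMIs were called higher: Alas2 had 165 against 3 UMIs, a ratio of 486 (163 to 2380), and Bpgm 110 against 2, a ratio of 486 (131 to 4062). All 6 alveolar macrophage markers with enough UMIs were also called higher, Chil3, a chitinase-like protein of macrophages, 4.53-fold (3.42 to 5.96). Of the alveolar type 2 list, 11 of 15 genes were called lower and 1 higher. Of the club list, 14 of 15 were called lower, Scgb1a1 by 37.8-fold (29.7 to 48.9). Without the APM library only 2 red cells remain, and the calls drop from 122 to 34 genes higher and from 75 to 17 lower.

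The 84 cells below the line carried epithelial genes of several kinds. Against all other cells 3.82% of 11901 genes were called higher and 12.1% lower, and as above these calls describe the label. Without the APM library 274 genes in place of 455 were higher and 851 in place of 1444 lower, and without HDM+APM 881 were lower. Sftpc, the surfactant protein made by alveolar type 2 cells, stood at 81679 against 88.6 CPM. Scgb1a1 stood at 182635 against 696 CPM, Scgb3a2, another airway secretoglobin, at 14328 against 62.3 and Reg3g, an antibacterial lectin, at 18316 against 48.9. Of the alveolar type 2 list 18 of 20 genes were called higher and 1 lower, of the club list 17 of 19 higher and none lower, and of the pan-epithelial list 13 of 18 higher and 1 lower. Of the goblet list 8 of 9 were called higher, with Muc5ac, the gel-forming airway mucin, at 29 UMIs against 4 in all other cells. The stressed and transitional epithelium list had 9 of 13 higher and 1 lower, Krt8 at 489 against 4.52 CPM and Krt18 at 423 against 9.43.

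All 17 alveolar macrophage markers were called lower in the epithelial part. Chil3 stood at 1310 against 7386 CPM, Marco, a scavenger receptor, had 1 UMI, and Pparg and Siglecf, both defining for alveolar macrophages, had none. Their summed level was 3540 CPM against 21761 in the other cells. Endothelial markers had no UMI at all. Of 14 unfolded protein response genes 9 were called lower and none higher.

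Ciliated genes, the first named in the label, had few UMIs in these cells. The 16 measured ciliated genes held 105 UMIs, 871 CPM together, against 34540 UMIs for the club list. Dynlrb2, a dynein light chain of cilia, had 14 UMIs, and Sec14l3 had 14. Of the 10 ciliated genes with enough UMIs 9 were called higher. The exception, Tppp3, is also present in the other cells, at 226 CPM there against 207 CPM, and supplied 7548 of that list's 7927 UMIs outside. By cell, 57 of the 84 carried at least 2 alveolar type 2 markers, 80 at least 2 club markers and 14 at least 2 ciliated markers. Only 8 cells carried 3 or more ciliated markers, 1 of 4 HDM cells, 3 of 25 HDM+APM cells and 4 of 50 APM cells. The HDM cell carried 9 of them in 11 of its 999 UMIs and had only 1.40% of UMIs in the secretory genes. The other 7 had secretory genes at 8.50 to 38.7% of UMIs. All 8 thus carried airway secretory RNA, the HDM cell more than the highest of the 990 HDM cells outside the label (0.831%), and whether it was free RNA was not tested.

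Within the epithelial part, cells were grouped by which of 2 sums was larger, a grouping chosen after values were seen. The surfactant sum is the share of UMIs on Sftpc, Sftpa1, Sftpb and Sftpd, and the secretory sum the share on Scgb1a1, Scgb3a1, Scgb3a2, Bpifa1 and Reg3g. By that rule 51 cells were secretory-led and 33 surfactant-led. The split was wide: 72 cells had a sum of 10% or more, no cell had both at 5% or more, and 6 cells, 5 of APM and 1 of HDM, had neither at 5%. The surfactant-led cells numbered 3, 1, 26 and 3 in control, HDM, APM and HDM+APM, and the secretory-led cells 2, 3, 24 and 22. Surfactant-led cells were thus 26 of the 50 epithelial cells of the APM library and 3 of the 25 of the HDM+APM library. The kinds' shares of all cells were 0.668% (0.437 to 0.978) and 0.267% (0.0551 to 0.779) surfactant-led in those libraries, and 0.617% (0.396 to 0.917) and 1.96% (1.23 to 2.95) secretory-led. The surfactant-led intervals overlap, and the secretory-led intervals do not.

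**Figure D2:**
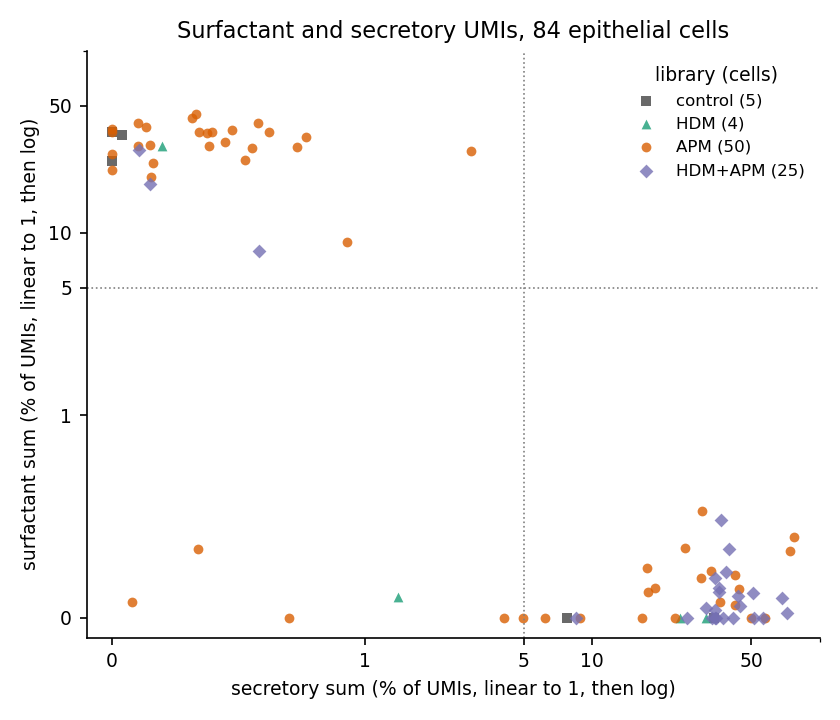
Each point is 1 of the 84 epithelial cells, with the surfactant sum and the secretory sum of its UMIs on the y and x axes (% of UMIs, linear to 1 and logarithmic above), coloured by library, with dotted lines at 5%. The points follow the axes, with no cell past 5% on both.

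Of the 6 cells with neither sum at 5%, 2 of APM missed it narrowly, with secretory sums of 4.09 and 4.94%. The cell nearest the haemoglobin line was another, with 45.8% haemoglobin and a secretory sum of 0.700%. A further APM cell held 67 UMIs of Ager, the alveolar type 1 marker, and 877 of Malat1, a nuclear RNA, among 2539 UMIs, with mitochondrial transcripts at 0.0788%. The last APM cell held 211 UMIs of Malat1, 14 of Clu and 7 of Krt18, and the HDM cell was the one with 9 ciliated markers.

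Within the APM library the kinds were compared over 26 surfactant-led cells (median 818 UMIs, 25290 in all) and 24 secretory-led cells (median 799, 34575 in all). Of 313 genes 16.9% were called higher in the surfactant-led cells and 10.2% lower. All 12 alveolar type 2 genes with enough UMIs were called higher, a count that the choice of kinds partly fixes: without the genes of both sums it was 8 of 8. Lyz1, a lysozyme of type 2 cells, had 101 UMIs against none, at least 46.0-fold higher (lower limit 36.8). Napsa, a protease that processes surfactant protein B, had 48 against 0, and Slc34a2, a phosphate transporter of type 2 cells, 28 against 0. Scd1, a fatty acid desaturase, had 32 against 0, S100g 63 against 1, Chil1 68 against 2 and Sfta2 37 against 1. In cells of at least 1000 UMIs Napsa, Slc34a2, Scd1 and Sfta2 were no longer called, with log2 ratios of 7.45, 6.29, 6.46 and 6.75.

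Antigen-presentation genes went with surfactant. Cd74, the invariant chain of MHC class II, had 179 UMIs in the surfactant-led cells and 2 in the secretory-led cells, 7078 against 57.9 CPM, a ratio of 122 (33.4 to 1018). H2-Ab1 had 33 against 1 UMI and H2-Aa 18 against 2, so all 3 class II genes with enough UMIs were called higher. MHC class II is known on mouse type 2 cells. The surfactant-led APM cells had 1 UMI of the 12 dendritic markers, none of the 10 B cell markers and 85 of the 17 alveolar macrophage markers, 3361 against 3905 CPM in the secretory-led cells. The part of such cells in the class II values was not tested. The ion transport and tight junction list had 3 of 4 genes higher and none lower.

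Club-cell genes went the other way. Of the club list 10 of 13 genes were called lower in the surfactant-led cells and none higher, and without the genes of both sums 5 of 8. Lypd2 had 0 against 45 UMIs, Sult1d1, a sulfotransferase, 0 against 36 and Aldh1a1, an aldehyde dehydrogenase, 0 against 29. In cells of at least 1000 UMIs Sult1d1 and Aldh1a1 were no longer called, with log2 ratios of −6.14 and −5.95. Gsto1, a glutathione transferase, had 1 against 135 and Cyp2f2, the club-cell cytochrome P450, 1 against 81, 39.5 against 2343 CPM. Of the xenobiotic and antioxidant list 6 of 7 genes were called lower and none higher. Cbr2, a carbonyl reductase, was found in both kinds at 2412 and 3413 CPM and did not pass. Haemoglobin genes were also lower, 90 against 1572 UMIs for the 4 together, most of the latter from the cell at 45.8%, and with a leading sum of at least 5% in every cell Hbb-bs and Hba-a1 no longer passed.

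The libraries were compared among secretory-led cells, the kind with at least 20 cells in 2 libraries: 22 of HDM+APM (median 1570.5 UMIs) against 24 of APM (799). Both groups of mice had breathed the dust, and only the HDM+APM group received the allergen. With no replicate library, allergen and library cannot be told apart here. Nor can a level per cell be told from the mix of cells within this kind. Of 330 genes 7.88% were called higher in the HDM+APM cells and 19.4% lower. All 4 goblet-list genes with enough UMIs were called higher. Retnla, a secreted resistin-like protein, led, followed by Clca1, Chil4, Tff2 and AA467197.

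Retnla had 3795 UMIs in the HDM+APM cells, from 0 to 752 per cell with a median of 70.5, and was found in 21 of 22. In the APM cells it had 1 UMI in 1 of 24. The levels were 89343 and 28.9 CPM, a ratio of 3089 with a counting interval of 554 to 122041. The 3 HDM secretory-led cells had 106 Retnla UMIs, 57 and 49 in 2 cells, and the 2 control cells had none. So Retnla was high in both libraries that had the allergen, on very few cells in the one without dust. It is not particular to epithelium there: in the HDM+APM library the cells the authors named classical monocyte held Retnla at 16611 CPM, alveolar macrophages at 2814, T cells at 1100 and B cells at 1053. T cells are not known for making it, and 83.8% of them had a Retnla UMI at a median of 1850 UMIs per cell, against 95.5% of the secretory-led cells. The secretory-led level was above that of every type listed, and that of the surfactant-led cells was not. The 3 surfactant-led HDM+APM cells held 29, 5 and 5 Retnla UMIs, 7132 CPM, between the levels of the alveolar macrophages and of the monocyte-named cells.

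Clca1, a secreted protein that shapes airway mucus, had 344 UMIs in the HDM+APM cells, up to 79 per cell with a median of 7, in 18 of 22 cells. None was found in the 24 APM cells. Against the floor of 3 counts the level was 93.3-fold higher, and the lower limit of the exact interval was 75.5. Chil4, a chitinase-like protein, had 319 UMIs in 18 cells, up to 69 per cell, against none. It was 86.6-fold higher against the same floor (lower limit 70.0), with the limit on Chil3 and Chil4 given above. Chil3 had 80 against 38 UMIs, 1883 against 1099 CPM, and did not pass. T cells of the HDM+APM library had Clca1 and Chil4 at 34.2 CPM each, and 6.62 and 7.35% of them had a UMI at their median of 1850 UMIs, against 81.8% of the secretory-led cells for each gene. In HDM, Clca1 had 36 UMIs in 2 of the 3 secretory-led cells and Chil4 48 in 1. In the 2 secretory-led cells of the control library Clca1 had 1 UMI and Chil4 none.

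Tff2, a trefoil peptide secreted with mucus, had 354 UMIs in 18 of 22 cells against 3 in 2 of 24, 8334 against 86.8 CPM, a ratio of 96.1 (32.6 to 468). It had 28 UMIs in the secretory-led HDM cells and 13 in 1 secretory-led control cell, so it was not absent without allergen. Muc5ac had 23 UMIs in 7 of the 22 cells and none in the APM cells. It was 6.24-fold higher against the floor of 3 counts (lower limit of the exact interval 4.68). Muc5b, the other gel-forming airway mucin, had 47 against 1, Fcgbp, a mucus protein, 55 against 1, and Bpifb1, a secreted protein of airway glands and goblet cells, 163 against 17 (7.81-fold, 4.73 to 13.7). Agr2, a chaperone needed to fold mucins, was 3.34-fold higher (1.64 to 7.47) and Wfdc2 2.69-fold higher (2.23 to 3.25). By cell, at least 1 of Clca1, Chil4 and Muc5ac was found in 19 of 22 HDM+APM cells, 0 of 24 APM cells, 2 of 3 HDM cells and 1 of 2 control cells. Thus 3 of the HDM+APM cells lacked all 3 genes.

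**Figure D3:**
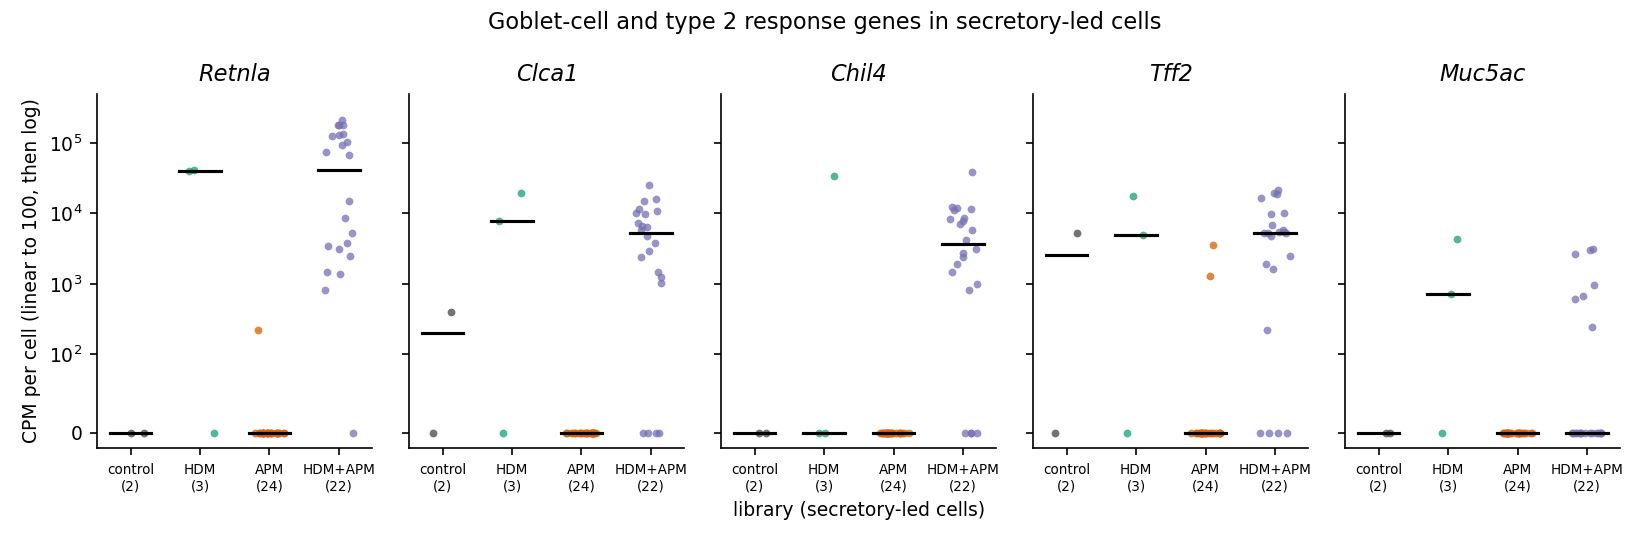
Each panel gives the CPM of 1 gene in every secretory-led cell by library, on an axis that is linear to 100 and logarithmic above, with the number of cells in brackets and a black line at the median. Most HDM+APM cells sit above 100 CPM for Retnla, Clca1, Chil4 and Tff2, while nearly all of the 24 APM cells sit at 0.

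The main club-cell secretory genes were less clear. Scgb1a1 stood at 291923 in HDM+APM against 250470 CPM in APM, a ratio of 1.17 (1.13 to 1.20) that did not pass, but 2 APM cells held 3935 and 3474 of the 8660 APM UMIs. Without cells at 60% or more in the secretory sum, which leaves 20 against 22 cells, Scgb1a1 was 251794 against 50951 CPM and was called higher, 4.94-fold (4.66 to 5.25). That sum includes Scgb1a1 itself, so the 60% line partly fixes this value. Among cells with at least 5% in the secretory sum Scgb1a1 was 291923 against 330627 CPM, 0.883-fold (0.859 to 0.908), and did not pass. Scgb3a1 (1.90-fold), Scgb3a2 (0.814-fold) and Cbr2 (0.986-fold) did not pass. Reg3g was 2.48-fold higher (2.24 to 2.75), but 1.90-fold and no longer called among cells with at least 5% in the secretory sum, and 1.36-fold without the cells at 60% or more.

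Several other club-cell genes were lower in the HDM+APM cells. Calls on the club list went both ways, since Tff2, Muc5b and Reg3g, called higher above, are on it too. Bpifa1, a secreted airway defence protein, had 892 against 1795 UMIs and was 2.47-fold lower (2.28 to 2.68), although 1010 of the APM UMIs lay in 1 cell. Cyp2f2 had 34 against 81 UMIs, 2.93-fold lower (1.94 to 4.51), and Sult1d1 5 against 36. Cyp4b1 had 1 against 19, but it fell under the minimum of 20 UMIs among cells with at least 5% in the secretory sum (1 against 10), without those at 60% or more and in cells of at least 1000 UMIs, where its log2 ratio was −4.26. Hp, haptoglobin, had 1 against 22, of which all but 1 lay in the 2 APM cells at 60% or more. The UMIs of 3 other low genes lay mostly in single cells of the APM library. Ager had 67 of its 73 APM UMIs in 1 cell, Malat1 877 and 211 of its 1148 in 2, and Hbb-bs 743 of its 828 in 1. Among cells with at least 5% in the secretory sum, 22 against 19, Malat1 had 47 against 36 UMIs and did not pass, while Retnla, Clca1, Chil4, Tff2, Muc5ac, Muc5b, Fcgbp, Bpifb1 and Agr2 were still called higher and Bpifa1, Cyp2f2 and Sult1d1 lower.

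The same libraries compared over the whole epithelial part gave 7.74% of 491 genes higher in HDM+APM and 17.9% lower. There the alveolar type 2 list had 11 of 14 genes lower and none higher, with Sftpc at 19251 against 120304 CPM. The kinds differ in number between these libraries, 3 of 25 against 26 of 50 surfactant-led, so a level per cell and the mix of cells cannot be told apart in that sum.

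The rest of the lavage also carried haemoglobin. In the cells outside the label the 4 genes held 7602, 6527, 67847 and 203 UMIs in control, HDM, APM and HDM+APM, or 502, 3406, 6056 and 39.4 CPM. The HDM library was above the control library. The red part held none of 994 HDM cells (interval 0 to 0.370%) and 2 of 3918 control cells (0.00618 to 0.184%). These intervals overlap, so the 2 libraries cannot be ordered by their share of red cells. A few cells held a large part: cells at 10% haemoglobin or more numbered 1, 1, 22 and 0 and held 3836, 1840, 25099 and 0 of those UMIs. Below 10% the levels were 249, 2452, 3846 and 39.4 CPM, in the same order of libraries. A haemoglobin UMI was found in 58.5, 97.2, 99.8 and 17.1% of the cells outside the label. Depth differs between the libraries, and with each cell thinned to 500 UMIs the shares were 11.5, 74.95, 84.4 and 1.73%, the same order.

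By type, the level below 10% haemoglobin differed between types and between libraries. In APM it was 3845 CPM in alveolar macrophages, 4863 in T cells, 5673 in granulocyte-like cells and 3377 in dendritic cells. In HDM it was 2149, 2616 and 4513 CPM in the first 3 types and 1591 in dendritic cells, the lowest of them. In HDM+APM it was 44.2, 71.8, 28.5 and 42.9 CPM, the granulocyte-like value resting on 1 UMI and the dendritic value on 2. HDM lay below APM and above HDM+APM in each of the 4 types. Epithelial cells under 10% haemoglobin had like levels, 3914 CPM in APM and 62.6 in HDM+APM. The composition was close to that of the red part without being equal: in APM, α-globin made up 45.1% (44.8 to 45.5) of haemoglobin UMIs in the red cells and 38.0% (37.6 to 38.5) in other cells under 10%, and Hbb-bt 8.21% (8.02 to 8.40) and 7.02% (6.78 to 7.27). In other APM cells at 10% or more, α-globin made up 52.7% (52.1 to 53.3). Whether these UMIs came from lysed red cells was not tested.

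The 24 cells at 10% or more outside the label spread over many clusters. In APM, 9 carried the refined label Macrophage 4, 16.2 to 49.8% haemoglobin in the 4 of them whose coarse label was epithelial and 10.9 to 31.8% in the 5 whose coarse label was alveolar macrophage. Others lay in Macrophages 2, 3, 5, 6, 7, 8 and 9, and 1 was a T cell at 21.1%. The highest in APM, at 55.2%, was a Macrophage 8 cell, and the control cell at 61.6% was the highest of all. Those 2 cells were past the 50% line but fall outside the red part, which takes labelled cells only.

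Secretory transcripts were also found outside the label. The 5 secretory genes stood at 482, 429, 2145 and 1254 CPM in the other cells of control, HDM, APM and HDM+APM, and 66.5, 47.8, 98.5 and 96.9% of those cells had a UMI. After thinning to 500 UMIs the shares were 16.1, 19.7, 64.8 and 48.3%. The 2 libraries with dust were higher than the 2 without on each of these measures, and they were also those with more labelled cells. Surfactant genes stood at 30.7, 24.0, 259 and 33.4 CPM, highest in APM, the library with 26 of the 33 surfactant-led cells. Of the 2906 surfactant UMIs outside the label in APM, 416 came from 1 cell at 21.6%. The other APM cells stood at 222 CPM. Of the control library's 7307 secretory UMIs outside the label, 2320 came from 1 cell, described next.

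**Figure D4:**
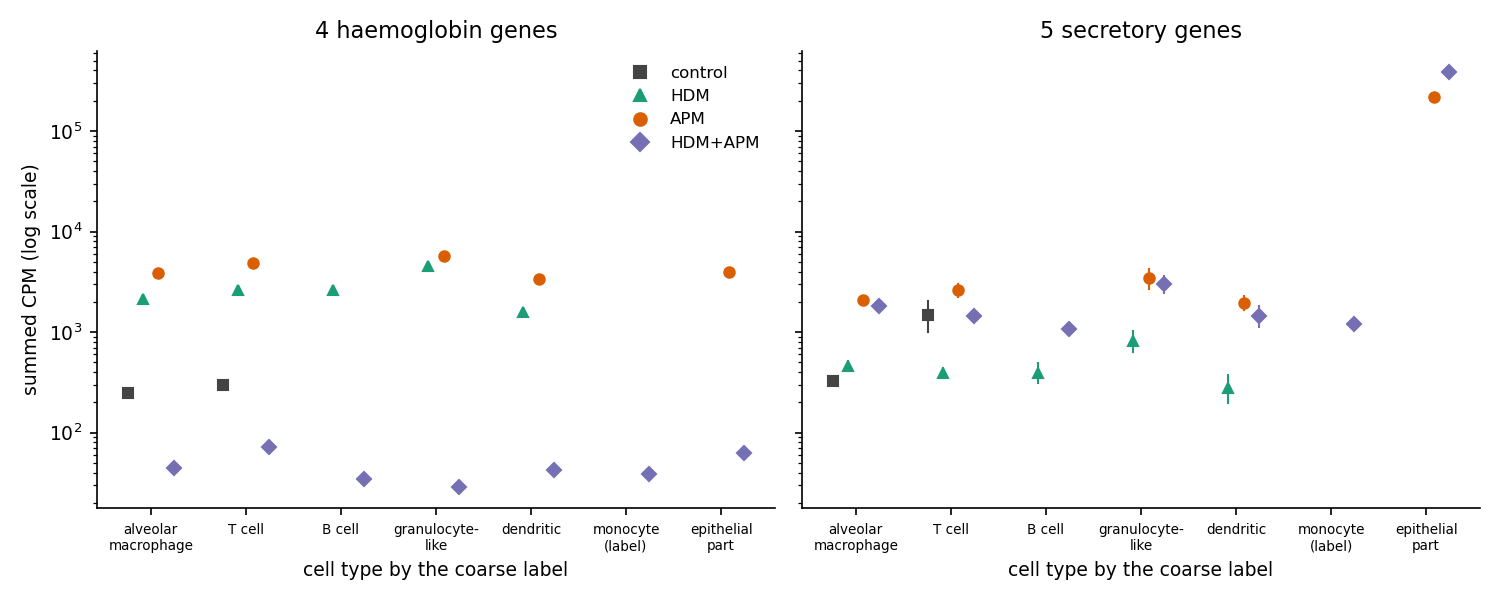
Summed CPM outside and inside the label by the authors' coarse type and library, for classes of at least 10 cells: the 4 haemoglobin genes in cells under 10% haemoglobin, and the 5 secretory genes, on log axes, with exact Poisson intervals as bars for the secretory genes. For haemoglobin the types outside the label run from 3377 to 5673 CPM in APM and from 1591 to 4513 CPM in HDM.

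In 23 more cells the authors' coarse label was epithelial while the refined label was a macrophage cluster: 4 control, 18 APM and 1 HDM+APM cells. They fell into 2 sets by haemoglobin. Of these, 6 had 16.2 to 61.6%, with the alveolar macrophage markers at 1.40 to 3.46% of UMIs and 0 to 1 pan-epithelial genes each. The other 17 had at most 0.698% haemoglobin, 4 to 14 pan-epithelial genes each and macrophage markers at 0.113 to 0.502%. All 17 carried at least 3 of Krt8, Krt18, Krt7, Wfdc2, Cldn3 and Epcam, against 24 of the 84 epithelial cells, 0 of the 6 and 1 of the 560 other Macrophage 8 cells. They were also deeper than the epithelial part, with a median of 3582 against 949 UMIs, which raises the chance of finding a gene. By sums, 1 of them, from the APM library, had a surfactant share of 21.6% and 1 control cell a secretory share of 28.0%, while the medians were 0.114 and 0.282%. The 2 labels therefore disagree on cells with epithelial genes as well as on cells with haemoglobin.

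**Figure D5:**
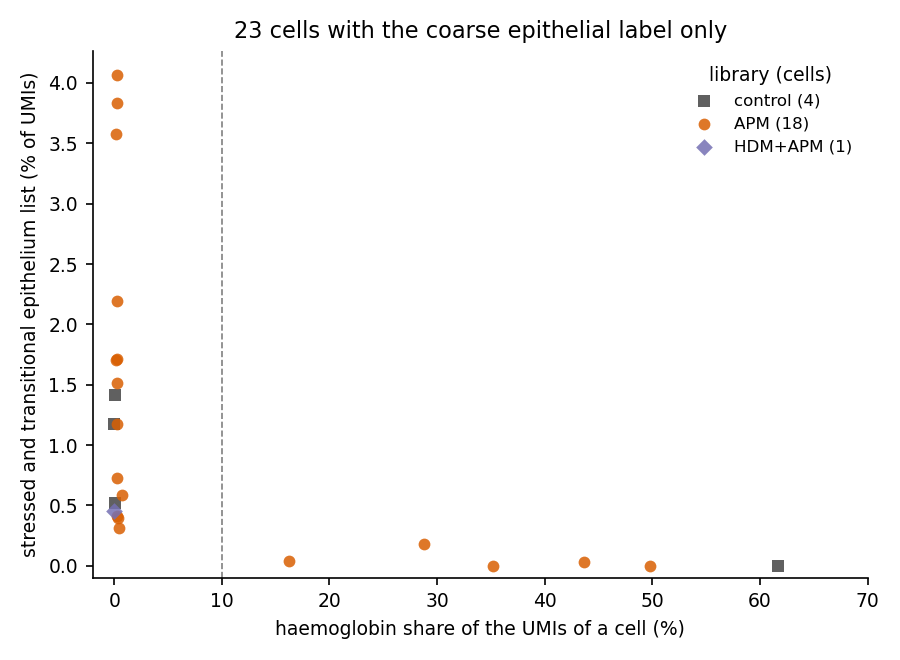
Each point is 1 of the 23 cells with a coarse epithelial and a refined macrophage label, with its haemoglobin share and the share of its UMIs on the stressed and transitional epithelium list (%), and a dashed line at 10% haemoglobin. The 17 cells below the line reach 0.312 to 4.06% on that list, and the 6 above it at most 0.180%.

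Of the 17, 13 lay in Macrophage 8 and were compared with the 560 other cells of that cluster, a comparison chosen after values were seen. The 13 were 3 control, 9 APM and 1 HDM+APM cells and the 560 were 107 control, 139 HDM, 205 APM and 109 HDM+APM cells, so library and kind of cell are mixed in these values. Of 6523 genes 6.44% were called higher and 8.16% lower, and within the APM library 8.92% of 2299 genes higher and 14.1% lower. Krt18, a keratin of simple epithelium, had 190 UMIs in the 13 cells and 5 in the 560, 3560 against 3.62 CPM. Its partner Krt8 had 77 against 7 and Krt7 55 against 2. Cldn3, a tight junction protein, had 84 against 3 and Clu, clusterin, 140 against 5. Nupr1, a stress-induced nuclear protein, had 428 against 97, 8020 against 70.2 CPM, a ratio of 114 (91.4 to 144). Sfn, which encodes 14-3-3 sigma and is induced by p53, had 43 against 10. Of the stressed and transitional list 9 of 10 genes were called higher and of the pan-epithelial list 10 of 12, with none lower in either. Within the APM library the counts were 6 of 7 and 10 of 10, and Krt18 had 138 UMIs in the 9 cells against 2 in the 205. There Sfn, with 14 against 1, had too few UMIs to be called.

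Macrophage genes were low in the same 13 cells. Of 17 alveolar macrophage markers 13 were called lower and none higher, Chil3 at 431 against 23881 CPM (55.4-fold lower, 36.9 to 87.4). The libraries differ in Chil3, which alveolar macrophages held at 32477 CPM in HDM and 31606 in HDM+APM against 6964 in APM. Within the APM library the cells had 209 against 4645 CPM (22.2-fold lower, 10.7 to 55.3), with 11 of 15 macrophage markers lower. Mrc1, the mannose receptor, had none against 661 UMIs. Itgax, which encodes CD11c, had none against 656. Within the APM library both were called lower, with none against 76 and 72 UMIs. Of 7 MHC class II genes 6 were lower, H2-Aa with 2 against 3825 UMIs, and within the APM library 6 of 6. Sftpa1 had 98 against 10 UMIs, Sftpb 34 against 3 and Scgb1a1 2607 against 1287, of which most lay in the control cell with a secretory share of 28.0%. Cells with these genes were thus counted in a macrophage cluster by the refined label, and the coarse label holds 127 cells in place of 104, the 6 cells with haemoglobin included.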

How the data were processed

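Lavage cells were sequenced as droplet 3′ tags, so levels carry no length correction. The deposited matrix holds the authors' raw UMI counts, 13838 genes by 9925 cells with 33643423 UMIs, and a table of the authors' coarse and refined labels. Cell Ranger 2.2.0, Seurat 2.3.4 and build mm10 are named per the submitters' processing notes. For the cell filters and any doublet removal, the steps were not given in the sources used here. No doublet caller was run. Members and gene lists were chosen with earlier results of these data known. The split into secretory-led and surfactant-led cells, the comparison of libraries among secretory-led cells, the Macrophage 8 comparison and the motifs were chosen after values were seen.

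UMIs were summed over cells and given as CPM, and log2 ratios used CPM with 10 CPM added. Ratio intervals are exact conditional binomial, shares Clopper-Pearson and levels Poisson, all at 95% and for counting error only. A gene with 0 UMIs on 1 side was compared with a floor of 3 counts. Genes named were the 15 highest and 8 lowest by log2 ratio among those at 50 CPM or more on either side with at least 20 UMIs, the 10 at each end between parts, up to 4 members per list by CPM, and the 5 given markers. Others named were chosen after their values were seen, and some genes that meet the rule are not reported here. Calculations used Python 3.11.15, numpy 2.4.6, scipy 1.17.1 and pandas 2.3.3. The calling was run on simulated counts with counting error only, which cannot show the effect of uneven counts between cells. Alternatives were another pseudocount, minimum UMIs, deeper cells, thinning and leaving out each library.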

Additional observations from a re-analysis of the deposited data

How the results depend on the processing

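Every result rests on 1 library per group and on cells whose labels came from their own genes. Of the counts and shares under each alternative, 133 stayed within the spread set for them and 46 moved. Of the values of named genes, 1589 kept their status as called or not called, 47 lost the call and 7 gained it. A further 3 values, of called genes, changed sign. Genes without a call were not checked for a change of sign. No paired analysis was possible because each group is 1 library. Depth limits the comparisons within the epithelial part, where 313 to 491 genes reached 20 UMIs. Causes of these changes were not tested, except that fewer cells or genes enter where so named.

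The APM library holds most labelled cells. Leaving out each library in turn, genes higher in the epithelial part than in all other cells numbered 274 to 420 (455 with all libraries) and genes lower 851 to 1405 (1444), the lowest of both without APM, and 881 were lower without HDM+APM. In the red part against all other cells the ranges were 21 to 42 higher (41) and 392 to 2965 lower (2896), and against the epithelial part 34 to 122 higher (122) and 17 to 72 lower (75), the lowest of each without APM. In the epithelial part the log2 ratios of Hbb-bs and Hba-a1 were 2.60 and 2.37 with all libraries. Without APM they changed sign (−0.84 and −1.20), and without HDM+APM they were 3.09 and 2.87. The APM cell at 45.8% haemoglobin held 1440 of the 1662 haemoglobin UMIs of the APM epithelial part. Without APM the log2 ratio of Car2 in the red part was −0.28, with 5.13 as the highest over the libraries left out. There 2 red cells remain.

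With 50 CPM added, 199 genes were higher and 738 lower in the epithelial part, and 25 were higher in the red part. With haemoglobin left out of the totals, 225 were higher and 67 lower in the red part. With no minimum of UMIs, 427 genes were higher in the red than in the epithelial part, 72 higher and 134 lower in HDM+APM against APM over the epithelial part (38 and 88 with the minimum), 51 and 142 among secretory-led cells (26 and 64), 118 and 66 between the kinds (53 and 32) and 783 higher in Macrophage 8 (420). With cells of at least 1000 UMIs, 47 were lower over the epithelial part, 32 among secretory-led cells, and 29 higher and 19 lower between the kinds. Other alternatives, added after the data were seen, gave 45 genes lower with red cells at 84% haemoglobin or more, 40 lower among secretory-led cells at 5% or more, and 205 higher and 325 lower in Macrophage 8 within the APM library (420 and 532), where fewer cells enter.

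The labelled share of APM was 0.831% among cells of at least 1000 UMIs, against 1.75%. Thinned to 500 UMIs, cells with a haemoglobin UMI were 11.5, 74.95, 84.4 and 1.73% in control, HDM, APM and HDM+APM, and those with a secretory UMI 16.1, 19.7, 64.8 and 48.3%. Under 10% haemoglobin the level was 249, 2452 and 3846 CPM in the first 3. The thinning of secretory UMIs and the 10% line were also added after the data were seen. Cells with ciliated markers numbered 30 at 1 marker and 8 at 3, against 14 at 2. The macrophage list was 3949 CPM in the epithelial part as a mean over cells and 2691 with 5% free RNA taken off, against 3540, and 3260 and 1690 in the red part, against 2814.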
